A study of Mus musculus with 5 samples.

Results

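A set of 10 imprinted genes that act on growth was followed through 5 RNA-seq libraries of hematopoietic stem cells (HSCs) from the bone marrow of young mice. They were H19, Igf2, Igf2r, Dlk1, Meg3, Peg3, Grb10, Ndn, Plagl1 and Mest, matched by gene symbol with no threshold on their values, and all 10 of 10 were present among the 55335 genes measured. Their levels are in TPM, a measure of relative transcript abundance within a library that is corrected for transcript length. Of the 10 genes, 7 passed the filter on low values (at least 1 TPM in at least 2 libraries) and were tested, among 13981 tested genes. Dlk1, Mest and Peg3 did not pass and are described by their levels only.

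An imprinted gene is transcribed mainly from the copy inherited from one parent, because the other copy carries a silencing mark, usually DNA methylation, set in the egg or sperm. Many imprinted genes act on growth before birth, those expressed from the paternal copy often promoting it and those expressed from the maternal copy often restraining it. Several of the 10 genes are known to be active in fetal tissues and in long-lived stem cells, HSCs among them, and to fall in most tissues as growth slows after birth. H19, Igf2r, Meg3 and Grb10 are maternally expressed in most tissues, and Igf2, Dlk1, Peg3, Ndn, Plagl1 and Mest are paternally expressed. TPM sum both copies, so the parental origin of the transcripts was not measured.

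The study compared 3 wild-type libraries with 2 libraries labelled RankCre-ki, each made from a pool of 80 to 90 HSCs (Kit+ Sca-1+ Lin- CD48- CD150+) of 3 week old mice of the labelled strain C57BL/6J. RankCre-ki mice carry Cre in one allele of Rank and, at Csf1r, a floxed and a null allele (Csf1r fl/-). In the study's account, macrophages that arise in the embryo are the immune cells in which this Cre recombines. Without Csf1r they and the osteoclasts do not form, and the bones are abnormally dense. By the genotype the HSCs would carry the null allele too. The study's methods keep the Csf1r null line on C3H/HeJ, a background that the labels do not name. The comparison asks how HSCs differ when they develop without these macrophages.

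Several properties of the libraries bear on every value below. The labels do not say whether the libraries came from separate animals, so p-values measure only the spread between these libraries. Wild-type replicate 1 and RankCre-ki replicate 2 share one series of library names (name series 1), and the other 3 libraries share another (name series 2). RankCre-ki replicate 2 is labelled female but had the Y-linked Eif2s3y at 62.5 TPM and Xist at 0.0229 TPM, close to wild-type replicate 1, labelled male, at 41.6 and 0.0273 TPM. In name series 2, Eif2s3y was at most 0.288 TPM and Xist 5.16 to 22.5 TPM, so that name series and the sex read from transcripts cannot be told apart. The study's methods give one tagmentation kit for 1 RankCre-ki and 1 control library and another for 1 RankCre-ki and 2 controls, the same split by number as the name series, so that the kit may not be separable from them either. At least 1 TPM was found for 9021 to 11084 genes in wild-type and for 12801 and 16386 in RankCre-ki libraries. Csf1r, the targeted gene, had 2.39, 0 and 0.234 TPM in the wild-type and 17.5 and 6.46 TPM in the RankCre-ki libraries, each in the order of their replicate numbers, so its level was not lower in the libraries labelled RankCre-ki. Among the HSC markers, Kit (20.4 to 145 TPM), Ly6a (47.7 to 185 TPM), Slamf1 (16.5 to 41.8 TPM) and Procr (11.7 to 103 TPM) were present in every library, while the stromal Col1a1 and Cxcl12, the endothelial Cdh5 and the macrophage gene Adgre1 were at most 0.0572 TPM. Other genes of those lists were present, and 1 of 12 stromal, 4 of 10 endothelial and 7 of 12 macrophage and osteoclast markers passed the filter. The summed level was 0.232 to 17.2 TPM in wild-type and 5.26 to 7.21 TPM in RankCre-ki libraries for the stromal list. For the endothelial list it was 79.7 to 148 and 85.0 to 136 TPM, and for the macrophage list 248 to 322 and 166 to 362 TPM. Lyz2, a lysozyme gene of myeloid cells, made up most of the macrophage sum (103 to 311 TPM over the 5 libraries), and Emcn, an endothelial sialomucin that HSCs also express, was at 22.9 to 59.6 TPM. Sequencing depth is not known from TPM, so no counting interval is given, and a value of 0 is written as listed at 0.

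The 10 genes spanned a wide range of levels in HSCs, and most were low. Ndn and Grb10 were the highest, with means of 17.9 and 16.8 TPM over the 5 libraries, above 62.5% and 61.2% of the tested genes. Meg3 (7.75 TPM), H19 (5.08 TPM), Igf2r (3.22 TPM), Plagl1 (2.30 TPM) and Igf2 (1.81 TPM) followed. Mest (0.822 TPM), Dlk1 (0.690 TPM) and Peg3 (0.178 TPM) were at the bottom, Peg3 below every tested gene. Only Ndn and Grb10 reached 1 TPM in all 5 libraries, which 42.1% of the tested genes did.

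The order of the genes was less certain than their range. In wild-type HSCs the means fell from Grb10 (18.2 ± 13.7 TPM, SD, n = 3) through Ndn, H19, Meg3, Igf2, Plagl1, Mest, Igf2r and Dlk1 to Peg3 (0.284 ± 0.254 TPM), and none of the neighbours in this order differed by more than the larger of their SDs. In RankCre-ki HSCs the order was Ndn (25.5 ± 11.4 TPM, SD, n = 2), Grb10, Meg3, Igf2r, Plagl1, H19, Dlk1, Mest, Igf2 and Peg3 (0.0191 ± 0.0114 TPM). Here Igf2r exceeded Plagl1, Plagl1 exceeded H19 and Dlk1 exceeded Mest by more than that SD, and the other neighbours did not differ beyond it.

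**Figure D1:**
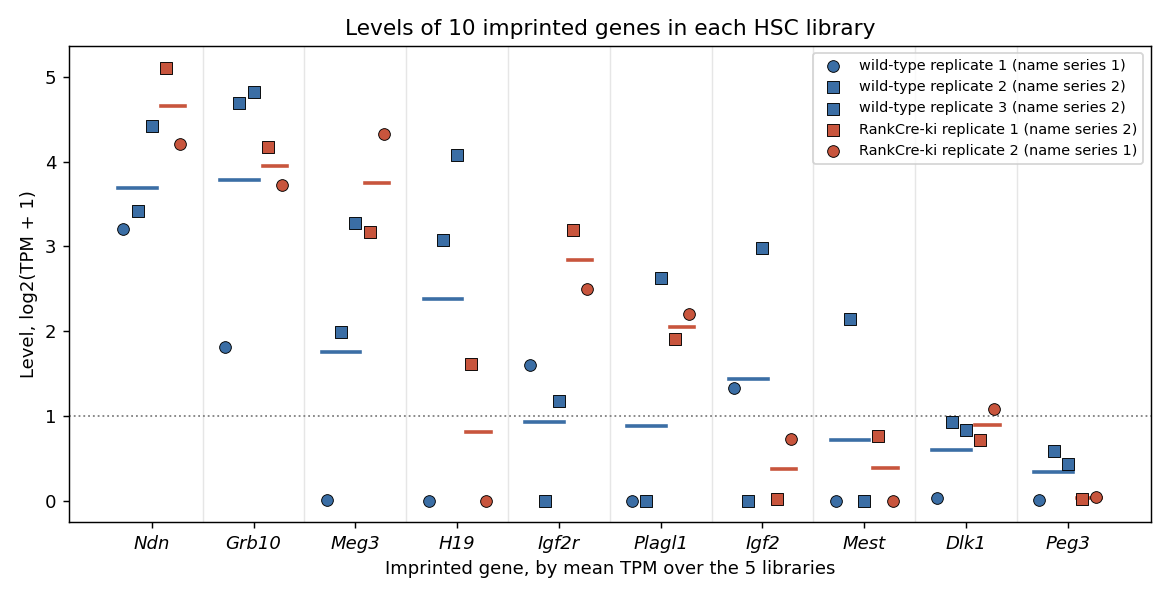
Level of each of the 10 imprinted genes in each HSC library, on a log2(TPM + 1) axis, ordered by mean TPM. Blue symbols are the 3 wild-type libraries and red symbols the 2 RankCre-ki libraries, circles are name series 1 and squares name series 2, short bars are group means, and the dotted line marks 1 TPM. Igf2r is the one tested gene whose RankCre-ki values both lie above all wild-type values.

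The libraries differed in how much of these transcripts they held. The summed level of the 10 genes reached 14.3, 49.9 and 86.8 TPM among wild-type and 73.0 and 58.8 TPM among RankCre-ki libraries. Wild-type replicate 1 stood lowest, and both RankCre-ki libraries lay inside the wild-type range. Genes at 1 TPM or more numbered 4, 5 and 7 for wild-type and 6 each for RankCre-ki. The composition of the sum changed as well, since Ndn made up 57.5% of it in wild-type replicate 1, Grb10 50.1% in wild-type replicate 2 and Meg3 32.4% in RankCre-ki replicate 2. Ndn was in place 1 or 2 of the 10 genes in every library, whereas H19 ranked between 3 and 9.

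No imprinted gene of the set met the study's threshold between the genotypes (an adjusted p up to 0.1 with a log2 fold change beyond 2 in either direction). In limma on log2(TPM + 1), 0 of 7 tested genes passed and 0 of 7 fell under an unadjusted p of 0.05. Igf2r had the smallest adjusted p, 0.881. Over all 13981 tested genes 0 were called (0.0%), while 960 (6.87%) had an unadjusted p under 0.05. The study put this threshold on a different test, DESeq2 on fragment counts with Independent Hypothesis Weighting, and reports genes called in both directions. Since limma on TPM called none here, the 0 of 7 does not tell whether a gene of the set passes in the study's own test. The mean was higher in RankCre-ki for 5 of the 7 genes, a direction taken by 72.3% of all tested genes. Their median log2 fold change was 0.97, beside 0.52 over all tested genes, and this general shift fell to 0.16 with median-ratio scaling and to -0.09 with quantile normalization. A change is therefore also given relative to that median where it matters. The filter bears on these counts too, since Plagl1 passed it only through the RankCre-ki libraries, and H19 and Igf2 only through the wild-type ones.

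**Figure D2:**
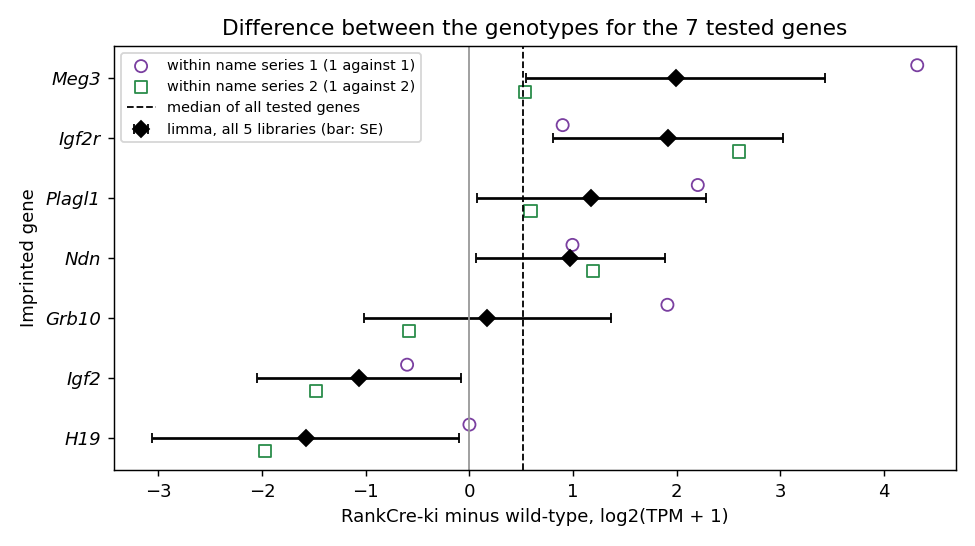
Difference between the genotypes, RankCre-ki minus wild-type on the log2(TPM + 1) scale, for the 7 tested imprinted genes. Diamonds are limma estimates over the 5 libraries with SE bars, open symbols are differences within each name series, and the dashed line is the median of all tested genes, 0.52. The bars of Meg3, Igf2r, Plagl1 and Ndn lie above 0, those of Igf2 and H19 below it, and that of Grb10 spans it, with adjusted p-values of 0.881 or more for all 7.

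Igf2r encodes the cation-independent mannose 6-phosphate receptor, which carries lysosomal enzymes to the lysosome and binds IGF2 for degradation. The gene (ENSMUSG00000023830) lies on the minus strand at chr17:12682406-12769664 (GRCm38). Its level was 2.03 and 1.27 TPM in wild-type replicates 1 and 3, was listed at 0 in wild-type replicate 2, and was 8.15 and 4.65 TPM in RankCre-ki replicates 1 and 2. Both RankCre-ki values lay above all wild-type values, which held for 1 of the 7 tested genes and for 18.8% of all tested genes. Of the 7, 0 had both RankCre-ki values below all wild-type values, against 3.71% of all. Group means were 1.10 ± 1.03 TPM (SD, n = 3) and 6.40 ± 2.47 TPM (SD, n = 2).

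The difference of Igf2r was 1.92 on the log2 scale (SE 1.11; limma adjusted p = 0.881), and 1.40 relative to the median of all genes. It was 0.90 within name series 1 and 2.60 within name series 2. With 3 against 2 libraries an exact permutation test of a single gene cannot go below a two-sided p of 0.2. With 1 library left out, 2 to 4 of the 7 did not overlap, against 31.6% to 44.7% of all tested genes, since fewer libraries make it easier for any gene. The 10 erythroid markers, 9 of them tested, summed to 1066 to 1901 TPM in wild-type and 2061 to 2910 TPM in RankCre-ki libraries. Most of that sum was Car2 (788 to 1753 and 1336 to 1739 TPM), a carbonic anhydrase gene whose groups overlapped, and Car1 was at 674 TPM in RankCre-ki replicate 2. Without Car1 and Car2 the sums were 147 to 258 TPM in wild-type and 322 and 899 TPM in RankCre-ki libraries. Of the 9 tested, 8 had a higher RankCre-ki mean (72.3% over all tested genes), with a median log2 fold change of 1.01 against 0.52 for all. The 1 lower was the globin gene Hba-a1 (log2 difference -0.77). Of the 10, Hbb-bt alone had both RankCre-ki values above all wild-type values (18.8% of all tested genes), at 36.2 to 124 and 251 to 632 TPM. The 11 markers of other lineages of the sort, 5 of them tested and Cd79a and Ly6g among those listed at 0, summed to 75.0 to 94.5 and to 96.2 to 104 TPM. Most of this was Ptprc, the pan-leukocyte CD45 gene, at 73.5 to 93.6 and 48.6 to 85.4 TPM, and without it the sums were 0.921 to 4.71 and 18.8 to 47.5 TPM. Cd48, which the sort gates against, was listed at 0 in wild-type and was 4.92 and 5.62 TPM in RankCre-ki libraries, and the NK cell gene Klrb1c and the neutrophil gene S100a8 were at most 0.0677 TPM in wild-type and 4.40 to 12.9 TPM in RankCre-ki libraries. The part of these transcripts, and of the number of detected genes, in the Igf2r values was not tested. In pooled cells, fewer cells of a type and less RNA per cell cannot be told apart.

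The sequence before the Igf2r start is shown because Igf2r was the gene whose groups did not overlap, and that before Meg3 because Meg3 had the largest estimate of the 7. Both are the 250 bases upstream of the RefSeq start site (GRCm38.p6), printed 5′ to 3′ along the gene, with CpG dinucleotides, the sites of DNA methylation, in capitals. That of Igf2r is chr17:12769707-12769956 on the minus strand and that of Meg3 chr12:109540746-109540995 on the plus strand.
Igf2r: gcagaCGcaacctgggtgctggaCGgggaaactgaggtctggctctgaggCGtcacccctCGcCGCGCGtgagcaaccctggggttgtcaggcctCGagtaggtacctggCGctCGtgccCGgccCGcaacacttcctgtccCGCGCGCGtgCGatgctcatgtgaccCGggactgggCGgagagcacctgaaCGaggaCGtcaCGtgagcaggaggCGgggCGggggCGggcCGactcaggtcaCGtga
Meg3: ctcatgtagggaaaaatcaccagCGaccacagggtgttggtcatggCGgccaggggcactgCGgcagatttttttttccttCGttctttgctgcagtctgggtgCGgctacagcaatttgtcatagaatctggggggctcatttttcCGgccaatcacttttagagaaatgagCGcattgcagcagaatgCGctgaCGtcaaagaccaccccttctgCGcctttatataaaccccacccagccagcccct
The start sites lie 42 and 5 bases from the 5′ ends of the genes in GENCODE M21. The Igf2r stretch held 27 CpGs and the Meg3 stretch 10. Methylation was not measured in these libraries.

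Over 300 bases around a start site (250 before and 50 after), the RefSeq tables held 16 entries for 9 of the 10 genes, some genes having more than a single start. At the start nearest the annotated 5′ end, Grb10 held 45 CpGs, more than 98.1% of 32851 entries, Igf2r 34 (92.3%) and Plagl1 26 (83.1%). Peg3 and Meg3 held 13 each, Ndn 11, Dlk1 9, Mest 8 and Igf2 2, against a median of 7. The nearest start was not always close to the annotated 5′ end. It lay 1263 bases away for Grb10, 1708 for Ndn, 9959 for Mest and 30328 for Plagl1, and at most 42 for the others. The hexamer TGCCGC on either strand, the core bound by ZFP57, which maintains imprints, was in 6 of the 16 entries, against 11.6% of all entries. These 6 belonged to Igf2, Meg3, Grb10, Plagl1 and Mest, and the Mest pair overlaps almost wholly. After the sequences had been read, palindromes were also counted: TCACGTGA has 2 copies in the Igf2r window, and at least 1 copy is in 0.974% and at least 2 in 0.0578% of all entries. TGACGTCA is in the Meg3 and Peg3 windows and in 1.79% of all entries. A match describes letters and not a bound site.

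Igf2r is overlapped on the opposite strand by Airn (chr17:12741311-12860136), a paternally expressed non-coding RNA that silences the paternal Igf2r copy. Airn had 2.80, 3.23 and 0.439 TPM among wild-type and 0.671 and 13.6 TPM among RankCre-ki libraries, so its high value fell in a single RankCre-ki library. The study's methods describe tagmentation of PCR-amplified cDNA, which does not record the strand. Reads from any sequence that Igf2r and Airn share thus cannot be assigned to either gene by strand. Slc22a3, a transporter gene in the same domain, was listed at 0 in wild-type replicates 1 and 2, was 5.37 TPM in replicate 3, and was 8.77 and 8.29 TPM in RankCre-ki libraries. Like Igf2r, it did not overlap between the groups (log2 difference 2.36, SE 1.30, limma adjusted p = 0.878).

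Meg3, a long non-coding RNA of the Dlk1 domain that is counted among growth-restraining transcripts, ranged from near 0 to the highest level of any of the 10 genes in RankCre-ki replicate 2. The gene (ENSMUSG00000021268) lies on the plus strand at chr12:109541001-109571726. Wild-type HSCs had 0.00513, 2.98 and 8.69 TPM, and RankCre-ki HSCs 8.01 and 19.1 TPM, in the order of their replicate numbers. The groups overlapped at wild-type replicate 3, and wild-type replicate 1 was close to 0. The wild-type mean of 3.89 ± 4.42 TPM (SD, n = 3) and the RankCre-ki mean of 13.5 ± 7.82 TPM (SD, n = 2) gave a log2 difference of 1.99 (SE 1.44; limma adjusted p = 0.910). It was 4.32 within name series 1 and 0.54 within name series 2, the latter close to the median of all genes.

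Rian, the next maternally expressed non-coding RNA of the same domain, was at 2.18, 3.17 and 1.41 TPM in wild-type and at 8.47 and 5.87 TPM in RankCre-ki libraries, without overlap (log2 difference 1.35, SE 1.20, limma adjusted p = 0.936). Its wild-type level, unlike that of Meg3, was not lowest in replicate 1. Mirg and Rtl1 were at most 0.20 TPM and Dio3 was listed at 0 in all libraries. Dlk1, the paternally expressed gene of the domain, encodes a Notch-like transmembrane protein of fetal cells. It lies at chr12:109452823-109463336 on the plus strand (ENSMUSG00000040856) and had 0.0238, 0.897 and 0.777 TPM in wild-type and 0.646 and 1.11 TPM in RankCre-ki libraries, reaching 1 TPM in a single library.

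H19, a maternally expressed long non-coding RNA that restrains growth, was above 0 in name series 2 alone. The gene (ENSMUSG00000000031) lies on the minus strand at chr7:142575529-142578143. It was listed at 0 in name series 1, that is in the first wild-type and the second RankCre-ki library, and reached 7.42 TPM in wild-type replicate 2, 15.9 TPM in wild-type replicate 3 and 2.05 TPM in RankCre-ki replicate 1. The wild-type mean was 7.78 ± 7.97 TPM (SD, n = 3), and the RankCre-ki mean 1.02 ± 1.45 TPM (SD, n = 2). The log2 difference was -1.58 (SE 1.48; limma adjusted p = 0.940). Within name series 2 it was -1.97, and within name series 1 both libraries were listed at 0. An exon of H19 also holds the precursor of miR-675, whose mature forms are printed with the seed (bases 2 to 8) in capitals (RefSeq, GRCm38.p6), since they are the known short product of this RNA.
mmu-miR-675-5p: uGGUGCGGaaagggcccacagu
mmu-miR-675-3p: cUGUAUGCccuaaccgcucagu
The precursor row Mir675 was listed at 0 in all 5 libraries, as were Mir483 within Igf2, Mir335 within Mest and Mir770 within Meg3. The libraries were primed on poly(A) tails, and mature miRNAs were not measured.

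Igf2, the fetal growth factor that shares the H19 control region and is expressed from the opposite parental copy, was low. It lies at chr7:142650766-142666816 on the minus strand (ENSMUSG00000048583). Its level was 1.51 and 6.91 TPM in wild-type replicates 1 and 3, was listed at 0 in replicate 2, and was 0.0105 and 0.651 TPM in RankCre-ki replicates 1 and 2. Both RankCre-ki values were under 1 TPM, but so was wild-type replicate 2, and the groups overlapped. The log2 difference was -1.07 (SE 0.99; limma adjusted p = 0.939), and it was negative in both name series, at -0.60 and -1.48. Without wild-type replicate 3, which held the highest value, the difference shrank to -0.29. Igf2 and H19 did not follow each other, since wild-type replicate 1 had Igf2 without H19 and wild-type replicate 2 H19 without Igf2.

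Further along the same chromosome 7 domain, the growth restrainers Cdkn1c and Phlda2 were present in every library. Cdkn1c, a maternally expressed inhibitor of cyclin-dependent kinases that keeps HSCs quiescent, was at 25.6, 17.0 and 45.5 TPM in wild-type and 21.7 and 10.2 TPM in RankCre-ki libraries (log2 difference -0.82, limma adjusted p = 0.95). Phlda2 was at 94.4, 71.6 and 32.9 TPM and at 78.0 and 44.0 TPM. Both thus exceeded H19 and Igf2 in all 5 libraries, and neither separated the genotypes. Kcnq1ot1, the non-coding RNA that silences the paternal copies there, was at 0.511 to 5.37 TPM.

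Grb10, an adaptor that restrains insulin and IGF receptor signalling, had levels of 2.52, 25 and 27.2 TPM among wild-type and of 17.1 and 12.2 TPM among RankCre-ki libraries. The gene (ENSMUSG00000020176) lies at chr11:11930508-12038683 on the minus strand. Both RankCre-ki values lay between the lowest and the other wild-type values. The difference was 0.17 on the log2 scale (SE 1.19; limma adjusted p = 0.993), made of 1.91 within name series 1 and -0.58 within name series 2. It was -0.81 without wild-type replicate 1 and -0.05 without RankCre-ki replicate 1, and its sign turned under median-ratio scaling (-0.28) and quantile normalization (-0.42). The neighbours Cobl and Ddc were under 1 TPM in every library.

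H19 and Grb10 were the genes that separated the name series rather than the genotypes. In both, the 2 libraries of name series 1 lay below all 3 of name series 2, which held for 2 of the 7 tested genes and for 15.9% of all tested genes. Genes with the opposite order numbered 0 of 7, against 17.1%. With 1 library of each genotype in name series 1 and unequal numbers in name series 2, values within a series are the ones free of this split, and they are differences between single libraries or small means with no test of their own.

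Ndn encodes necdin, a MAGE family protein that restrains proliferation and is expressed in quiescent HSCs. It is a gene of a single exon (ENSMUSG00000033585) at chr7:62346569-62350262 on the plus strand. The wild-type libraries had 8.26, 9.70 and 20.4 TPM and the RankCre-ki libraries 33.6 and 17.4 TPM. RankCre-ki replicate 2 lay below wild-type replicate 3, and otherwise the RankCre-ki values were higher. Between means of 12.8 ± 6.66 TPM (SD, n = 3) and 25.5 ± 11.4 TPM (SD, n = 2) there was a log2 difference of 0.97 (SE 0.91; limma adjusted p = 0.940) that was alike in the name series, 0.99 and 1.19. Relative to the median of all genes it was 0.46.

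The neighbours of Ndn did not share its level. Magel2, the adjacent MAGE gene, was at most 0.0277 TPM, and Mkrn3 was above 0 in wild-type replicate 2 (9.63 TPM) and RankCre-ki replicate 1 (4.0 TPM) alone. Snhg14, the long paternally expressed host of small nucleolar RNAs that runs antisense to Ube3a, was the highest, at 445, 153 and 100 TPM in wild-type and 75.6 and 93.2 TPM in RankCre-ki libraries. Both RankCre-ki values lay below all wild-type values, whereas the groups overlapped for Ndn (Snhg14 log2 difference -1.17, SE 0.67, limma adjusted p = 0.881). Snrpn was at 0.0218, 19.5 and 14.3 TPM in wild-type and 5.78 and 3.44 TPM in RankCre-ki libraries. Ube3a, the ubiquitin ligase gene imprinted in neurons, was at 11.9, 77.2 and 137 TPM and at 38.8 and 37.5 TPM, with the same limit on strand as for Igf2r and Airn.

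Plagl1, a zinc finger factor known to restrain the cell cycle and to control a network of imprinted genes, lies at chr10:13060504-13131694 on the plus strand (ENSMUSG00000019817). It was listed at 0 in wild-type replicates 1 and 2, was 5.18 TPM in wild-type replicate 3, and was 2.74 and 3.60 TPM in RankCre-ki replicates 1 and 2. Wild-type replicate 3 alone made the groups overlap. The log2 difference was 1.18 (SE 1.11; limma adjusted p = 0.940), with 2.2 and 0.59 within the name series. Relative to the median of all genes it was 0.66, and with quantile normalization the difference itself was 0.30. Without wild-type replicate 3 the unadjusted limma p was 0.0340, with adjusted p-values of 0.493 or more over the alternatives. This 0.0340 was the one unadjusted value under 0.05 for any of the 7 genes in any alternative. Plagl1 passed the filter only through the RankCre-ki libraries, and without wild-type replicate 3 every remaining wild-type value is listed at 0. That p therefore follows in part from the filter and from the library left out. The neighbour Phactr2 was at 6.73, 3.15 and 0.454 TPM in wild-type and 11.6 and 8.39 TPM in RankCre-ki libraries, without overlap (log2 difference 1.60, limma adjusted p = 0.931).

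Mest and Peg3 were near the limit of what the libraries held. Mest encodes a hydrolase-like protein of mesodermal tissue and lies at chr6:30723547-30748465 on the plus strand (ENSMUSG00000051855). It was 3.41 TPM in wild-type replicate 2 and 0.699 TPM in RankCre-ki replicate 1 and was listed at 0 in the other 3 libraries. Copg2, a coat protein gene whose 3′ end overlaps that of Mest on the opposite strand, was at 12.3, 0 and 0.0507 TPM in wild-type and 26.8 and 1.61 TPM in RankCre-ki libraries, so its high values fell in other libraries than the highest Mest value. The limit on strand holds for this pair too. Peg3, a zinc finger gene at chr7:6703892-6730431 on the minus strand (ENSMUSG00000002265), was at 0.00442, 0.502 and 0.345 TPM in wild-type and 0.0110 and 0.0271 TPM in RankCre-ki libraries, under 1 TPM throughout. In the Peg3 domain, Usp29 exceeded 1 TPM in wild-type replicate 1 (1.54 TPM) and RankCre-ki replicate 2 (2.19 TPM).

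**Figure D3:**
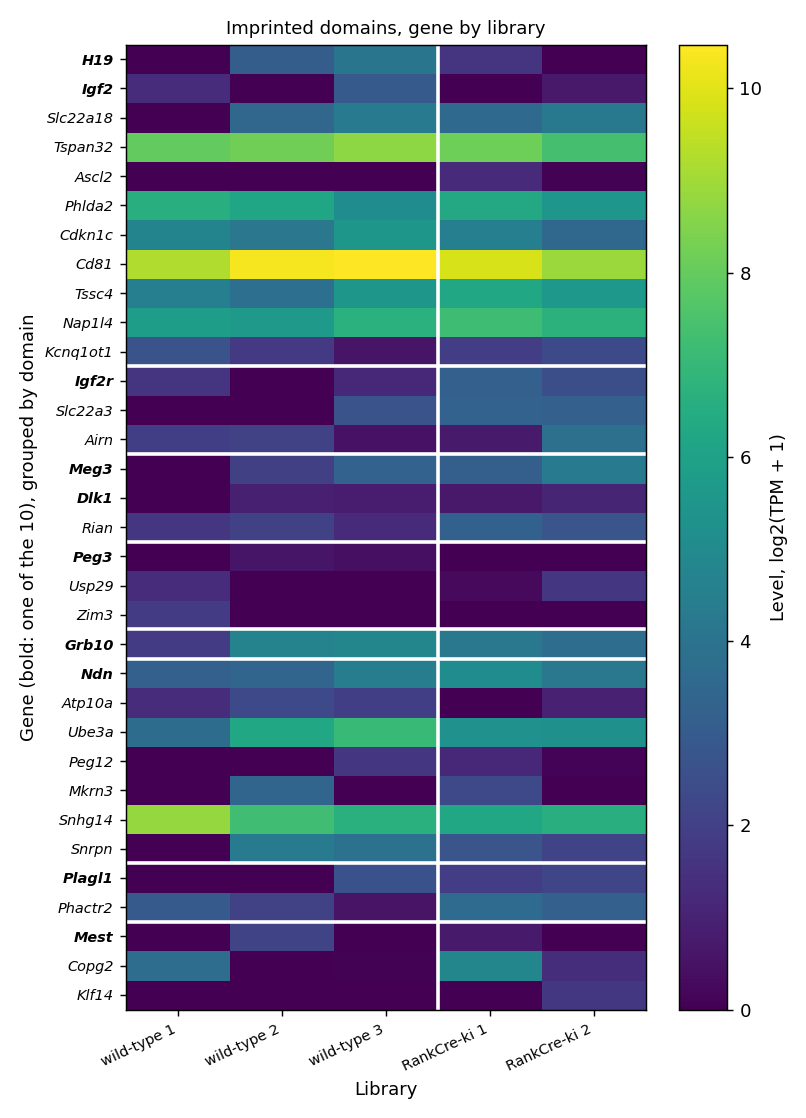
Levels, as log2(TPM + 1) by colour, of the 10 imprinted genes (bold) and of the neighbours in their domains that reached 1 TPM in at least 1 library. Columns are the 5 libraries, a vertical white line parts wild-type from RankCre-ki, and horizontal white lines part the domains. Cd81, Tspan32 and Snhg14 are far brighter than any of the 10 genes, and H19 is dark in wild-type replicate 1 and RankCre-ki replicate 2.

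The wider list of imprinted genes held no called gene either. Of 61 further imprinted genes listed, 60 were found and 32 were tested, of which 0 were called and 0 had an unadjusted limma p under 0.05. The mean was higher in RankCre-ki for 21 (72.3% over all tested genes) and lower for 11, with a median log2 fold change of 0.56, close to that of all tested genes, and of -0.14 under quantile normalization. Both RankCre-ki values lay above all wild-type values for 7 of the 32 and below them for 3, against 18.8% and 3.71% of all tested genes. The most abundant were the tetraspanins Cd81 and Tspan32, the G protein gene Gnas and Commd1, a regulator of copper transport. Gnas, at 274, 352 and 410 TPM in wild-type and 209 and 146 TPM in RankCre-ki libraries, had the smallest adjusted p of the list (log2 difference -0.96, SE 0.43, limma adjusted p = 0.747). Cd81 was at 591, 1291 and 1423 TPM and at 928 and 480 TPM, and Tspan32 at 251, 291 and 409 TPM and at 286 and 165 TPM, both with a lower RankCre-ki mean inside overlapping ranges. Commd1 was at 31.5, 243 and 229 TPM and at 220 and 157 TPM, low in wild-type replicate 1 as Grb10 and Meg3 were.

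The partners of Igf2, Igf2r and Grb10 were examined as 46 genes of ligands, receptors, signalling and mannose 6-phosphate sorting. Of these 33 were tested, 0 were called and 2 had an unadjusted limma p under 0.05, which 6.87% of all tested genes had. Among ligands and binding proteins 2 of 11 passed the filter. Igf1 was at 3.82, 11.3 and 36.5 TPM in wild-type and 25.9 and 0.0474 TPM in RankCre-ki libraries, so one RankCre-ki value lay inside the wild-type range and the other below it. Igfbp4, a secreted IGF binding protein, was the highest of them at 32.4, 32.0 and 51.2 TPM and at 89.7 and 32.2 TPM. Ins1 was at 9.77 TPM in RankCre-ki replicate 2 and listed at 0 elsewhere, and Igfals reached 1.10 TPM in that library alone.

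Signalling genes downstream of the receptors included the 2 with a small p, both higher in RankCre-ki, a direction and p that 6.34% of all tested genes had. Akt2, a kinase of the insulin pathway, was at 0.0724, 1.89 and 16.9 TPM in wild-type and 42.4 and 36.2 TPM in RankCre-ki libraries (log2 difference 3.40, SE 1.42, limma adjusted p = 0.698). Tsc1, an inhibitor of mTORC1, was at 0.191, 0 and 1.60 TPM and at 10.9 and 6.38 TPM (log2 difference 2.68, SE 1.06, limma adjusted p = 0.646). Neither passed after adjustment, and their known effects on growth are opposite. The most abundant were Pik3r1 (44.0, 56.5 and 116 TPM against 76.2 and 49.3 TPM), Rps6kb1, the adaptor Shc1 and Grb2. Shc1 was at 30.9, 15.8 and 16.5 TPM and at 42 and 46.4 TPM, without overlap, whereas the ranges of Rps6kb1 (21.4 to 81.2 TPM) and Grb2 (12 to 37.1 TPM) had their RankCre-ki values inside them or at their lower end.

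All 13 genes of mannose 6-phosphate sorting, the pathway in which Igf2r works, passed the filter. The mean was higher in RankCre-ki for 10 of 13 (72.3% over all tested genes), with 5 non-overlapping above (18.8%) and 0 below (3.71%), and a median log2 fold change of 0.58 against 0.52 for all genes. One of the 5, the sorting adaptor Gga3, passed the filter only through the RankCre-ki libraries. Vps29, of the retromer that recycles the receptor, was at 194, 563 and 423 TPM in wild-type and 201 and 206 TPM in RankCre-ki libraries. M6pr, the smaller mannose 6-phosphate receptor, was at 113, 68.4 and 173 TPM and at 213 and 129 TPM. It exceeded Igf2r in TPM in all 5 libraries. Vps35 was at 52.5, 42.9 and 92.9 TPM and at 103 and 73.5 TPM, and Snx2 at 64.8, 181 and 146 TPM and at 89.9 and 54.3 TPM, with opposite signs of the difference (0.54 and -0.77).

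Relatives of Ndn in the MAGE family were measured beside it. Of 7 listed, 5 were tested and 0 had an unadjusted limma p under 0.05. Maged2 was at 49.6, 143 and 73.8 TPM in wild-type and 95.5 and 28.9 TPM in RankCre-ki libraries, and Maged1 at 41.7, 40.3 and 69.5 TPM and at 108 and 53.3 TPM, so both were above Ndn in every library. Mageh1 was listed at 0 in both libraries of name series 1 and was 6.31 to 16.2 TPM in name series 2, an order it shared with H19. Nsmce3 was at 3.55 to 10.3 TPM.

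Factors that maintain imprints were mostly expressed. Of 18 listed, 15 were tested, 0 were called (0.0% of all tested genes) and 1 had an unadjusted limma p under 0.05 (6.87%). Both RankCre-ki values lay above all wild-type values for 5 of the 15 (18.8%) and below them for 0 (3.71%). The gene with the small p was Zfp445, a zinc finger protein that binds imprinting control regions, at 0.0507, 0.196 and 6.65 TPM in wild-type and 24.7 and 19.1 TPM in RankCre-ki libraries (log2 difference 3.42, SE 1.41, limma adjusted p = 0.689). Trim28, its corepressor, was at 79.6, 72.9 and 135 TPM and at 87.0 and 18.0 TPM. The chromatin genes Atrx (8.88, 251 and 150 TPM against 72.0 and 107 TPM), Eed (42.2, 9.26 and 87.6 TPM against 71.5 and 43.1 TPM) and Smchd1 (2.59, 82.8 and 37.3 TPM against 22.8 and 21.7 TPM) overlapped between the groups. Atrx and Smchd1 were lowest in wild-type replicate 1.

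Growth regulators of fetal HSCs were examined because several act on Igf2 or on the same developmental window. Of 8 listed, 4 were tested and 0 had an unadjusted limma p under 0.05. Igf2bp2, which binds Igf2 mRNA, was present throughout at 32.5, 17.1 and 39.5 TPM in wild-type and 21 and 17.7 TPM in RankCre-ki libraries. Hmga2 was at 4.21, 23.9 and 17.9 TPM and at 8.52 and 7.81 TPM. Lin28b was listed at 0 in wild-type replicates 1 and 2, was 17.6 TPM in replicate 3 and was 7.68 and 5.77 TPM in RankCre-ki libraries, so that, like Plagl1, it was above 0 in those 3 libraries and listed at 0 in the other 2. Igf2bp3 exceeded 1 TPM in wild-type replicate 3 (1.69 TPM) and RankCre-ki replicate 2 (4.83 TPM). Sox17 was listed at 0 in all libraries.

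Genes with the pattern most like each of the 7 were taken as those with the highest Pearson r of log2(TPM + 1) over the 5 libraries, among tested genes whose mean reached 10 TPM. They are given as a description, since all points share the same 5 libraries and their composition. For Igf2r they were Snapc2, Gatd1 and Arhgef18 (r 0.999 to 0.995), and 1.19% of 7129 compared genes had an r above 0.95. Ndn was closest to Adss, Serinc3 and Zfp945 (0.996 to 0.995, 1.68% above 0.95), and Meg3 to genes that included Arl6ip4 and Leng1 (0.999 and 0.995, 1.49%). Grb10 had by far the most genes like it (6.00% above 0.95), led by 4930481A15Rik, Cenpn and Cdc123. H19 was closest to Zc3h14, Gm12918 and Lman1 (1.56%), and Plagl1 to D11Wsu47e, Nek6 and Tmem141 (2.36%). Igf2 had the fewest (0.154%), with Prkca, 2810001G20Rik and Dnajc8 at 0.991 to 0.983.

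**Figure D4:**
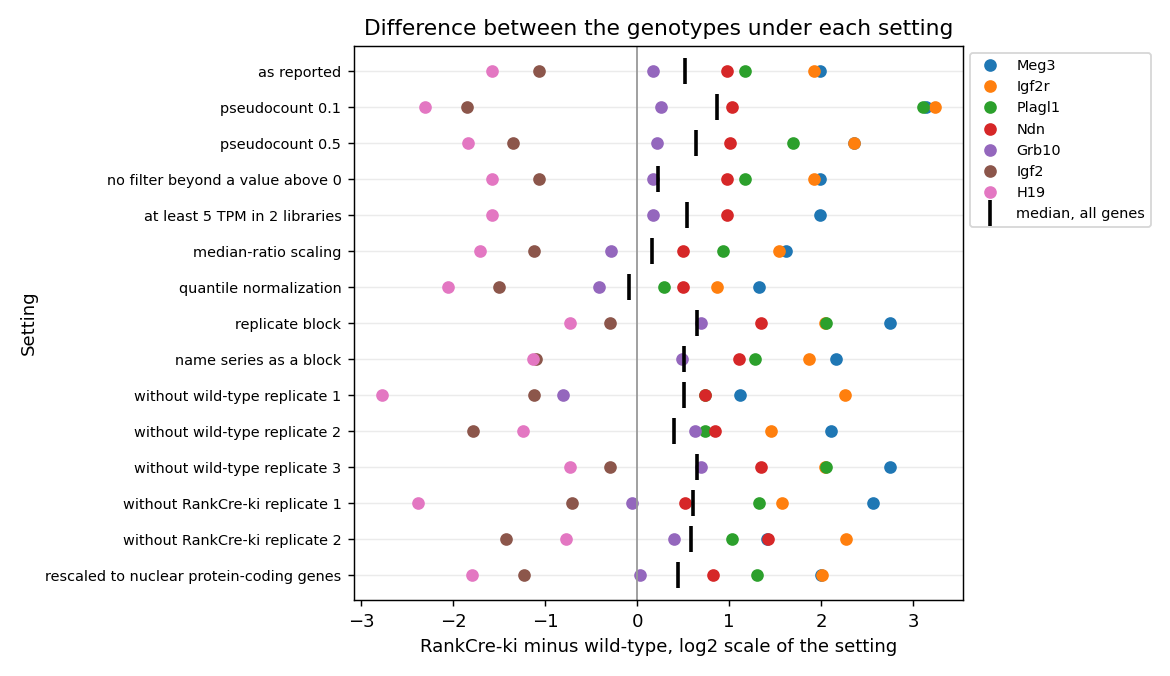
Difference between the genotypes for each tested imprinted gene (coloured points) under each setting, on the log2 scale of that setting, with the median of all tested genes as a black bar. H19 and Igf2 stay below 0 and Ndn, Meg3, Igf2r and Plagl1 above it wherever they are tested, while Grb10 crosses 0, and the median of all genes moves from 0.87 with a pseudocount of 0.1 to -0.09 with quantile normalization.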

How the data were processed

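The 5 libraries were made by oligo-dT primed full-length cDNA amplification from 80 to 90 sorted HSCs. Per the study's methods, reads were aligned with gsnap to mm10 with Ensembl splice sites and fragments counted with featureCounts (2.0.1; bcl2fastq 2.20.0 in the submitters' processing notes). Different tagmentation kits were used, and that they match the name series is an inference from the library names and the number of libraries per kit. The deposited values are TPM. The software that gave TPM is not given in the sources used here. Values as low as 1.13e-10 TPM occur, below what a whole read would give. Each library sums to 1000000, depth is unknown, and precision rests on the number of libraries.

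From these, 92 spike-in rows, all at 0, were removed, which left 55335 genes. The 13981 genes that reached 1 TPM in 2 or more libraries were compared on log2(TPM + 1) with limma 3.58.1 (R 4.3.3; lmFit, eBayes with trend, two-sided, no covariate) and Benjamini-Hochberg adjustment over all tested genes, with the study's threshold. Fold changes understate low genes. The code was tested on simulated data. Positions and exons are from GENCODE M21 (GRCm38), promoters and miRNAs from RefSeq (GRCm38.p6). The members and lists were chosen with earlier results of these data known.

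Named genes were the 10 members, their domain neighbours, the 4 genes of each other list with the highest mean TPM, list genes with an unadjusted p under 0.05, 11 markers and the 3 most similar genes per tested member. Csf1r, Cd79a, Ly6g, Xist, Eif2s3y, Lyz2, Emcn, Car1, Car2, Hba-a1, Ptprc, Klrb1c, S100a8 and Gga3 were named outside this rule, and some genes that the rule names are not reported here. Alternatives were other pseudocounts, filters, scalings and blocks, each library left out, TPM rescaled to nuclear protein-coding genes, and no fold limit.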

Additional observations from a re-analysis of the deposited data

How the results depend on the processing

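No tested gene of the 10 imprinted genes, of the other imprinted genes or of the IGF axis was called under any of the 15 alternatives. The estimates of H19 (-2.77 to -0.73), Igf2 (-1.85 to -0.29), Ndn (0.50 to 1.43), Igf2r (0.86 to 3.24), Meg3 (1.11 to 3.14) and Plagl1 (0.30 to 3.11) kept their sign under every alternative that tested them. Grb10 turned to -0.28 with median-ratio scaling and to -0.42 with quantile normalization, and ranged from -0.81 to 0.69 when 1 library was left out. The median of the other imprinted genes turned from 0.56 to -0.14 with quantile normalization, where the median of all genes was -0.09. The number of non-overlapping members was 0 when at least 5 TPM in 2 libraries was asked, which left 4 members, and 2 to 4 with 1 library left out: 3 of 7 without wild-type replicate 1 (41.9% of all tested genes), 2 without replicate 2 (31.6%), 4 without replicate 3 (38.4%), and 2 without RankCre-ki replicate 1 (44.7%) or 2 (41.3%). Without RankCre-ki replicate 1, 304 of all genes (2.17%) were called, and 1 without wild-type replicate 1, the other libraries giving 0. A lone RankCre-ki library is assumed to vary like the wild-type ones. With the replicate block the median of the members was 1.34, and with the name series as a block 1.11. Deviations of equally numbered libraries from their group means correlated at -0.380 and -0.195, and wild-type replicate 3 has no partner. These values cannot decide whether the numbers pair libraries. The deviations of the 2 RankCre-ki libraries mirror each other, and equally numbered libraries fall in different name series. The replicate block called 1 of all genes. A block cannot alter the non-overlap count, so none was computed for it. The causes were not tested. Depth is unknown, so the precision of values under 1 TPM cannot be given.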
